A study of Mus musculus with 15 samples.

Results

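The genes described here are the oncofetal RNA-binding and chromatin genes Igf2bp1, Igf2bp2, Igf2bp3, Lin28a, Lin28b, Hmga1 and Hmga2, 7 of the 21889 genes in the gene count table. They were taken as a fixed list of names. The list was drawn up because Igf2bp1 has far lower counts after birth, so the levels of Igf2bp1 are given as a description, with no test. RNA-seq of poly(A) RNA from mouse cerebellar cells gave 15 libraries in 5 groups of 3. The E15.5 group was made from granule neuron precursors with the genotype label Math1-GFP, and the P1, P7 and P14 groups from wild-type (WT) granule neuron precursors. Age and genotype label therefore cannot be told apart in any comparison with E15.5. The fifth group, MB, was made from cells of medulloblastomas, which are tumours of the cerebellum, in Ptch1 heterozygous animals, and its labels give no age. Cells of all groups were purified on Percoll, a density gradient that enriches granule neuron precursors without sorting them one by one. The labels do not say whether the 3 libraries of a group came from separate animals, so the p-values below measure the spread between these libraries.

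Lin28a and Lin28b encode RNA-binding proteins that block the maturation of let-7, a family of microRNAs that accumulates as tissues mature. Mature let-7 in turn lowers the RNAs of Lin28, Hmga2 and the Igf2bp genes through matches to its seed in their 3′ untranslated regions (3′ UTRs). The Igf2bp proteins bind mRNAs, among them Igf2 mRNA, and control their stability, transport and translation. Hmga1 and Hmga2 are small chromatin proteins that bind AT-rich DNA and are abundant in embryonic and dividing cells. In the cerebellum, granule neuron precursors divide in the external granule layer after birth and then mature into granule neurons, and Ptch1 loss lets such precursors form medulloblastoma.

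The mature let-7 sequences are shown because the members are textbook targets of this family. In the RefSeq table (GRCm38.p6), 10 mouse mature names of the family share the seed GAGGUAG, which is bases 2 to 8, printed here in capitals in 4 of them.
mmu-let-7a-5p: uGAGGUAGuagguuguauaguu
mmu-let-7e-5p: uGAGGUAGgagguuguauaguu
mmu-let-7i-5p: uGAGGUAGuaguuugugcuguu
mmu-miR-98-5p: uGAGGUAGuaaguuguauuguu

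The complement of the seed, CTACCTC, was searched on the transcribed strand of the 3′ UTR of each gene in the GENCODE annotation of GRCm38. All 7 members held it, and 9.02% of the 20993 genes with a 3′ UTR did. Since the members are textbook targets, this is a description and not a test. Igf2bp1, Lin28b and Hmga2 held 4 matches each, Lin28a held 2, and Igf2bp2, Igf2bp3 and Hmga1 held 1 each. Long 3′ UTRs hold a match more often: among genes with a 3′ UTR within 20% of the member's length, the share with a match ran from 8.09% for Hmga1 (1183 bases) to 33.6% for Igf2bp1 (6337 bases). As many matches as Hmga2 has were found in 0.134% of 2245 genes of like length, and as many as Lin28b has in 0.236% of 1270 genes. The share was 0.355% for Igf2bp1 and 2.06% for Lin28a. For the members with 1 match it was 12.1% (Igf2bp2), 13.3% (Igf2bp3) and 8.09% (Hmga1). One 22-base stretch per member is printed, 5′ to 3′ on the gene's strand, with the match in capitals.
Igf2bp1, chr11:95961778-95961799, minus strand: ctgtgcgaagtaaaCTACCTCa
Igf2bp2, chr16:22059473-22059494, minus strand: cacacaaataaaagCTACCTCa
Igf2bp3, chr6:49086787-49086808, minus strand: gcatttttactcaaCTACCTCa
Lin28a, chr4:134005189-134005210, minus strand: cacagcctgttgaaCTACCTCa
Lin28b, chr10:45381022-45381043, minus strand: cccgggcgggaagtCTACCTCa
Hmga1, chr17:27563278-27563299, plus strand: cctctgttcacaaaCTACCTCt
Hmga2, chr10:120364224-120364245, minus strand: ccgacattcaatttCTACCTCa

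In the 6 members other than Hmga1 the printed match is followed by an A, the base that makes the longer form CTACCTCA, which 3.06% of genes held. A match is a stretch of letters and not a measured site. The let-7 RNAs themselves were not measured by these poly(A) libraries.

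The libraries held 12597472 to 43443132 counts in genes, and a level below is in CPM (counts divided by a library size that edgeR's TMM method had adjusted); group levels are mean ± SD with n = 3. Markers of granule neuron precursors were present in all 15 libraries, with 8 of 8 genes counted in each group and a summed level of 2746 to 6925 CPM. P1 replicate 3 stood apart from the other P1 libraries: its granule neuron markers summed to 3133 CPM against 1259 and 1296, and its oligodendrocyte markers to 3389 against 608 and 925. Markers of other cells also differed between groups, and some were highest at E15.5 like the members that step down. Cerebellar nuclear neuron markers, all 5 counted in each group, summed to 146 to 361 CPM at E15.5, 16.8 to 25.5 at P1, 7.39 to 8.80 at P7, 12.1 to 14.2 at P14 and 37.5 to 76.2 in MB. Markers of GABAergic interneurons, all 6 counted in each group, summed to 465 to 638 CPM at E15.5, 168 to 217 at P1, 195 to 286 at P7, 115 to 174 at P14 and 5.04 to 8.33 in MB. Other lists were higher after birth. Oligodendrocyte markers, all 8 counted in each group, ran from 71.0 to 105 CPM at E15.5 to 5127 to 5555 at P14, with 686 to 974 in MB. Choroid plexus markers, all 6 counted in each group, ranged from 52.4 to 10510 CPM over the postnatal libraries, against 97.2 to 379 at E15.5 and 54.9 to 279 in MB. Endothelial markers, all 7 counted in each group, summed to 11.6 to 34.3 CPM at E15.5, 19.2 to 35.1 in MB and 319 to 800 over the postnatal libraries. Pericyte and fibroblast markers, all 8 counted in each group, summed to 22.9 to 37.3 CPM at E15.5, 24.1 to 29.8 in MB and 381 to 1071 over the postnatal libraries. The gene tables also fall into a pair of counting sets: in 6 libraries (E15.5 replicates 1 and 3, all of P7 and MB replicate 1) the gene table held under 10% of the transcript table's count of Tsnax, and in the other 9 it held most of it. Every P7 library was in the first set and every P1 or P14 library in the second, so at P7 the set and the age can be told apart only through E15.5 and MB.

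**Figure D1:**
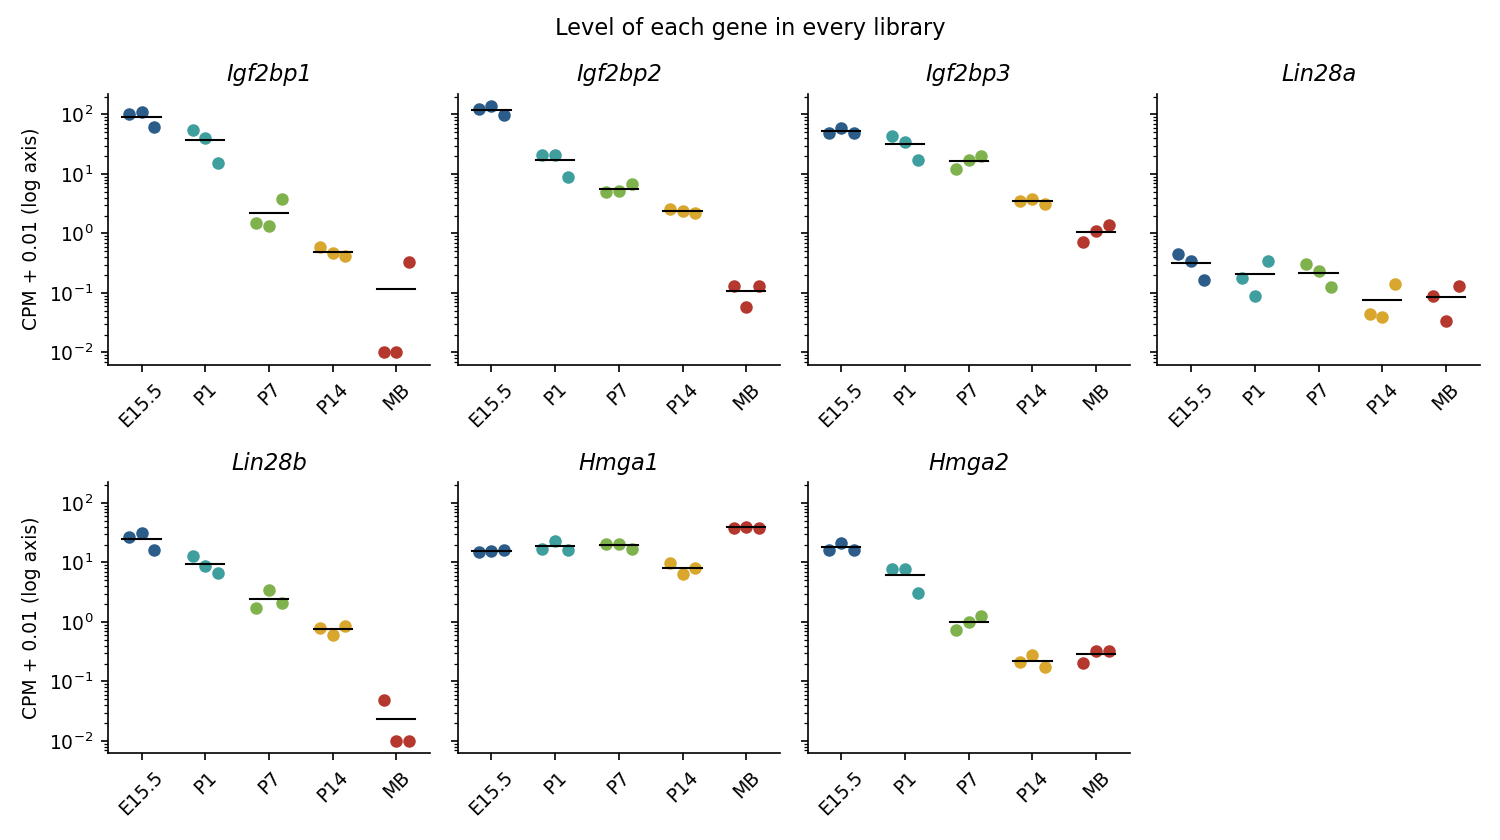
Level of each of the 7 genes in every library, as CPM + 0.01 on a log axis; points are libraries, black bars are group means of 3, and points at the bottom are libraries with 0 counts. Igf2bp1, Igf2bp2, Igf2bp3, Lin28b and Hmga2 step down from E15.5 to P14, while Hmga1 is near 8 to 19 CPM at the 4 ages and near 39 CPM in MB.

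Lin28b was the Lin28 gene with enough counts for a test. Its transcript lies at chr10:45096426-45190007 on the minus strand (mm9) and has 5 exons. At E15.5 its level was 26.4, 30.9 and 16.3 CPM in replicates 1 to 3, and at P1 it was 12.96, 8.72 and 6.67 CPM. At P7 it was 1.72, 3.42 and 2.04 CPM and at P14 0.775, 0.603 and 0.836 CPM. In MB there was 1 count in replicate 1 (0.0397 CPM) and 0 counts in replicates 2 and 3, where 3 counts would be 0.0733 and 0.120 CPM. No library of an age overlapped with the next age, so the order was E15.5, P1, P7, P14 and then MB. Lin28b fell at each step, with log2 differences of -1.37 ± 0.35 (SE) from E15.5 to P1 (edgeR FDR 0.00547), -1.97 ± 0.37 from P1 to P7 (edgeR FDR 0.0155) and -1.70 ± 0.39 from P7 to P14 (edgeR FDR 0.0178).

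Lin28a, the paralog best known from embryonic stem cells, was near the limit of detection. Its transcript lies at chr4:133559245-133574756 on the minus strand (mm9). It had 10, 4 and 6 counts for E15.5, 4, 2 and 9 for P1, 10, 8 and 3 for P7, 1, 1 and 4 for P14 and 2, 1 and 3 for MB. Over all libraries of a group this came to 20, 15, 21, 6 and 6 counts. The groups overlapped between all neighbouring ages, and the gene did not pass the filter on low counts, so it has no test. Its mean level per kilobase of transcript at E15.5 was 0.0882 CPM per kb, against 4.54 CPM per kb for Lin28b. Differences in Lin28a between these groups were not detectable at this depth.

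The Igf2bp genes lie on 3 chromosomes: Igf2bp1 at chr11:95818477-95867254, Igf2bp2 at chr16:22059082-22163372 and Igf2bp3 at chr6:49035220-49164953, all on the minus strand (mm9), with 15, 16 and 15 exons. Igf2bp1 stood at 101, 109 and 62.8 CPM at E15.5, at 54.8, 40.4 and 15.6 CPM at P1 and at 1.52, 1.35 and 3.74 CPM at P7. At P14 it stood at 0.573, 0.452 and 0.401 CPM, which is 17, 15 and 12 counts. No neighbouring ages overlapped. In MB all 8 of its counts were in replicate 3 (0.320 CPM), and replicates 1 and 2 had 0, where 3 counts would be 0.119 and 0.0733 CPM. The fall in the postnatal values is what the list was chosen by. The E15.5 mean was 191-fold the P14 mean, and 53.7% of that log2 distance lay between P1 and P7, with 17.2% before P1 and 29.2% after P7.

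Igf2bp2, which is also widely expressed outside the embryo, had its largest step from E15.5 to P1. It stood at 123, 139.8 and 97.4 CPM in E15.5, at 20.8, 21.2 and 9.005 CPM in P1, at 4.91, 5.16 and 6.70 CPM in P7 and at 2.56, 2.41 and 2.24 CPM in P14. No neighbouring ages overlapped. It fell at each step, with log2 differences of -2.82 ± 0.29 (SE) from E15.5 to P1 (edgeR FDR 3.97e-06), -1.61 ± 0.29 from P1 to P7 (edgeR FDR 0.0140) and -1.21 ± 0.29 from P7 to P14 (edgeR FDR 0.0219). The step before P1, at which the genotype label changes too, made up 50.01% of its log2 fall from E15.5 to P14.

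Igf2bp3 had its largest step from P7 to P14. It stood at 49.1, 58.9 and 49.7 CPM in E15.5, at 43.8, 33.8 and 17.1 CPM in P1, at 11.98, 17.3 and 20.0 CPM in P7 and at 3.57, 3.80 and 3.11 CPM in P14. The P1 and P7 libraries overlapped. Its difference was -0.73 ± 0.30 (SE) on the log2 scale between E15.5 and P1 (edgeR FDR 0.0575) and -0.94 ± 0.30 between P1 and P7 (edgeR FDR 0.0953), and neither passed the threshold. From P7 to P14 it fell by 2.23 ± 0.32 (edgeR FDR 0.00465). The step after P7 made up 57.1% of its log2 distance from E15.5 to P14, in which the E15.5 mean was 15.04-fold the P14 mean. Without P1 replicate 1 the step from E15.5 to P1 passed at -1.04 (edgeR FDR 0.0178), and without P1 replicate 3 the step from P1 to P7 passed at -1.24 (edgeR FDR 0.0155). With all libraries, the step from E15.5 to P1 passed in the transcript table at -0.85 (edgeR FDR 0.0176). It also passed with a counting set term (edgeR FDR 0.0379) and in DESeq2 (FDR 0.0359), but not with a replicate block (edgeR FDR 0.0790). The step from P1 to P7 passed in DESeq2 (FDR 0.0316) but not in the transcript table (edgeR FDR 0.0755) or with the counting set term (edgeR FDR 0.568).

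The sum of the 3 Igf2bp genes, per kilobase of transcript, was 53.8 ± 9.33 CPM per kb for E15.5, 16.0 ± 7.14 for P1, 5.48 ± 1.29 for P7, 1.48 ± 0.121 for P14 and 0.279 ± 0.0952 for MB (SD, n = 3). By gene table counts, the makeup of the sum moved as well. Igf2bp2 made up 56.9% to 57.6% of it in the E15.5 libraries, while Igf2bp3 made up 43.2% to 48.6% at P1, 65.7% to 72.8% at P7, 53.1% to 56.5% at P14 and 82.0% to 95.2% in MB. The number of Igf2bp3 counts for each Igf2bp2 count was 0.397, 0.421 and 0.510 for E15.5, 2.10, 1.60 and 1.90 for P1, 2.44, 3.34 and 2.99 for P7, 1.40, 1.57 and 1.39 for P14, and 6, 22 and 11.3 for MB. The MB ratios rest on 8 counts of Igf2bp2 in all. The groups did not overlap in any of the 4 comparisons made (each age with the one before it, and MB with P7). A two-sided exact permutation test of the log2 ratio gave p = 0.1 in each, which is the smallest p that 3 libraries against 3 allow, and 0.1 after Benjamini-Hochberg adjustment over the 4.

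**Figure D2:**
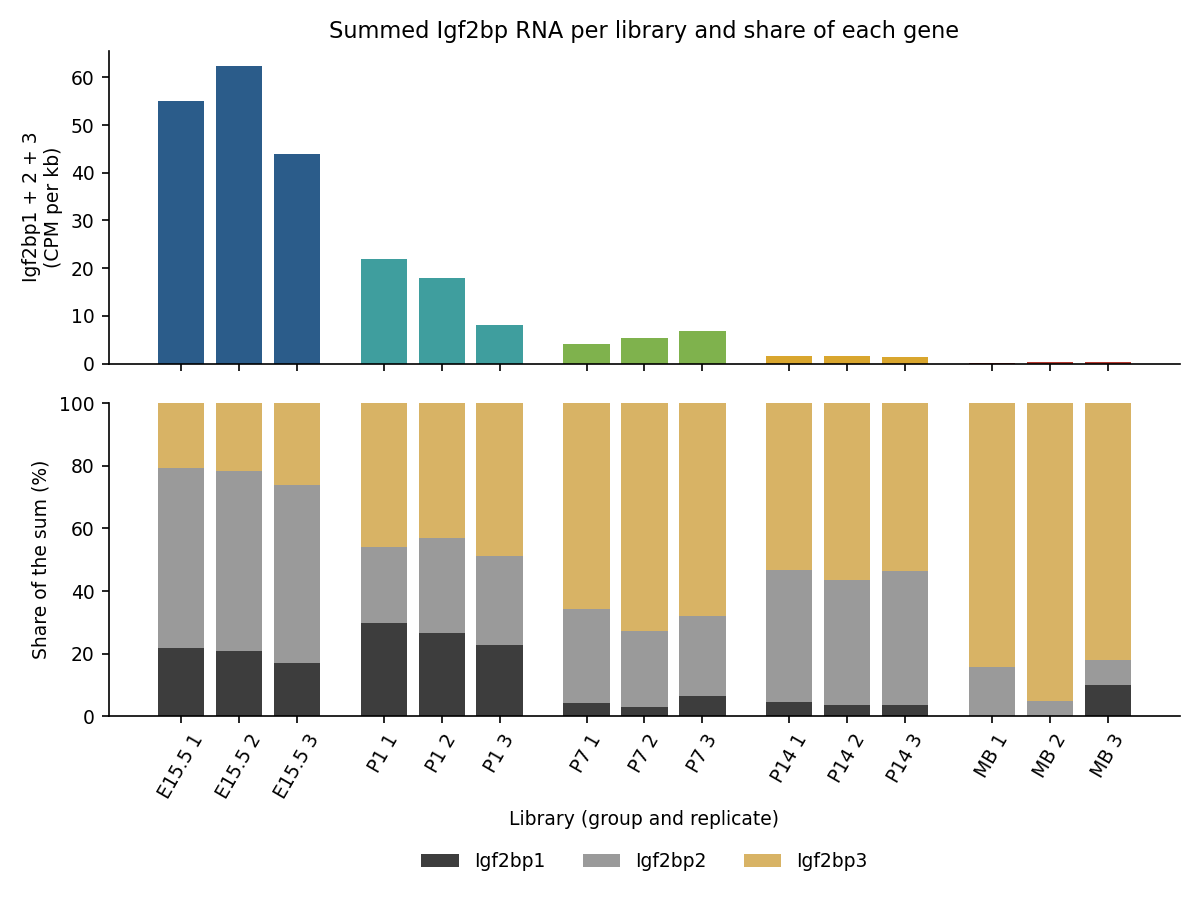
Upper panel, sum of Igf2bp1, Igf2bp2 and Igf2bp3 in CPM per kilobase of transcript in each library; lower panel, share of that sum from each gene in percent. By the gene table counts drawn here, Igf2bp2 makes up most of the sum at E15.5 (57.3% on average). By the same counts Igf2bp3 makes up most of it at P7 (68.8%) and in MB (87.2%). The gene table leaves out part of the Igf2bp3 reads, so these shares depend on the table.

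The count of Igf2bp3 depends on the table. In the mm9 positions of the transcript table, the 3′ end of Igf2bp3 overlaps the end of Malsu1 on the opposite strand, and the library type does not say that strand was kept. The gene table leaves out reads over both genes, while the transcript table counts them for each. The gene table held 42.9% to 68.5% of the transcript table's Igf2bp3 count at the 4 ages and 12.95% to 28.6% in MB. Malsu1 stood at 5.99 to 17.0 CPM at the 4 ages and at 15.4 to 20.8 CPM in MB. For Igf2bp1 and Igf2bp2 the gene table held at least 98.6% of the transcript count in the libraries with 10 or more counts, in both counting sets. The shares and ratios above use the gene table. Mean Igf2bp3 at E15.5 was 52.5 CPM there and 94.1 in the transcript table, while Igf2bp2 was 120 and 121. The Igf2bp3 share is thus larger by transcript counts, from which shares were not computed. That Igf2bp2 makes up most of the E15.5 sum was shown for the gene table only.

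Hmga2, a chromatin protein of embryonic and tumour cells, lies at chr10:119798331-119913525 on the minus strand (mm9) with 5 exons. It stood at 16.4, 20.96 and 16.4 CPM at E15.5, at 7.68, 7.91 and 3.01 CPM at P1 and at 0.731, 0.993 and 1.27 CPM at P7. At P14 it stood at 0.202, 0.271 and 0.167 CPM and in MB at 0.198, 0.318 and 0.320 CPM. No neighbouring ages overlapped, while P14 and MB did. Hmga2 fell at each step, with log2 differences of -1.53 ± 0.34 (SE) from E15.5 to P1 (edgeR FDR 0.00192), -2.64 ± 0.36 from P1 to P7 (edgeR FDR 0.00723) and -2.19 ± 0.43 from P7 to P14 (edgeR FDR 0.00960). The E15.5 mean was 84.0-fold the P14 mean.

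Hmga1, the paralog found in many dividing cells, followed another course and its count is uncertain. It lies at chr17:27693565-27700619 on the plus strand (mm9). A single-exon copy, Hmga1b, lies at chr11:120624108-120625733 on the plus strand (mm9). In the GENCODE transcripts the coding sequence of Hmga1b was identical to that of an Hmga1 transcript at 324 of 324 bases, so reads from the coding part cannot be assigned to either gene; a stretch of it is printed once to show what the pair shares.
First 120 bases of the Hmga1 and Hmga1b coding sequence: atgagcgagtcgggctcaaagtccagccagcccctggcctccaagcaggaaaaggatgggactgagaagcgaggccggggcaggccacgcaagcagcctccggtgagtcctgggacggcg

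Of the 1546 windows of 50 bases in an Hmga1 transcript, 87.2% also occur in Hmga1b. In the gene table, Hmga1 stood at 14.7, 15.9 and 16.2 CPM in E15.5, at 17.0, 22.8 and 16.4 CPM in P1, at 20.4, 20.8 and 16.9 CPM in P7, at 9.61, 6.39 and 8.19 CPM in P14 and at 37.8, 39.9 and 38.5 CPM in MB. Hmga1b stood at 129 ± 26.1 CPM in E15.5, 29.4 ± 16.0 in P1, 37.8 ± 1.58 in P7, 16.1 ± 3.03 in P14 and 21.9 ± 1.98 in MB (SD, n = 3). Hmga1b thus took 89.0% of the counts given to either gene at E15.5 but 36.0% in MB. The transcript table, which counts each read for every transcript it lies on, held 194 ± 25.3, 90.4 ± 29.5, 92.1 ± 10.3, 46.6 ± 4.93 and 105 ± 29.2 CPM of Hmga1 in E15.5, P1, P7, P14 and MB (SD, n = 3). The gene table held 8.09% of that count at E15.5 and 39.2% in MB.

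The direction for Hmga1 therefore depends on how the shared reads are treated. Between E15.5 and P1 the difference was 0.26 on the log2 scale in the gene table (edgeR FDR 0.292), -1.08 in the transcript table (edgeR FDR 0.00212) and -1.58 with Hmga1 and Hmga1b summed (edgeR FDR 5.5e-05). Between P7 and P14 it was -1.27 ± 0.20 (SE) in the gene table (edgeR FDR 0.00642), -1.005 in the transcript table (edgeR FDR 0.0208) and -1.24 with the genes summed (edgeR FDR 0.00872), so the fall at this step passed in each form of the count.

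**Figure D3:**
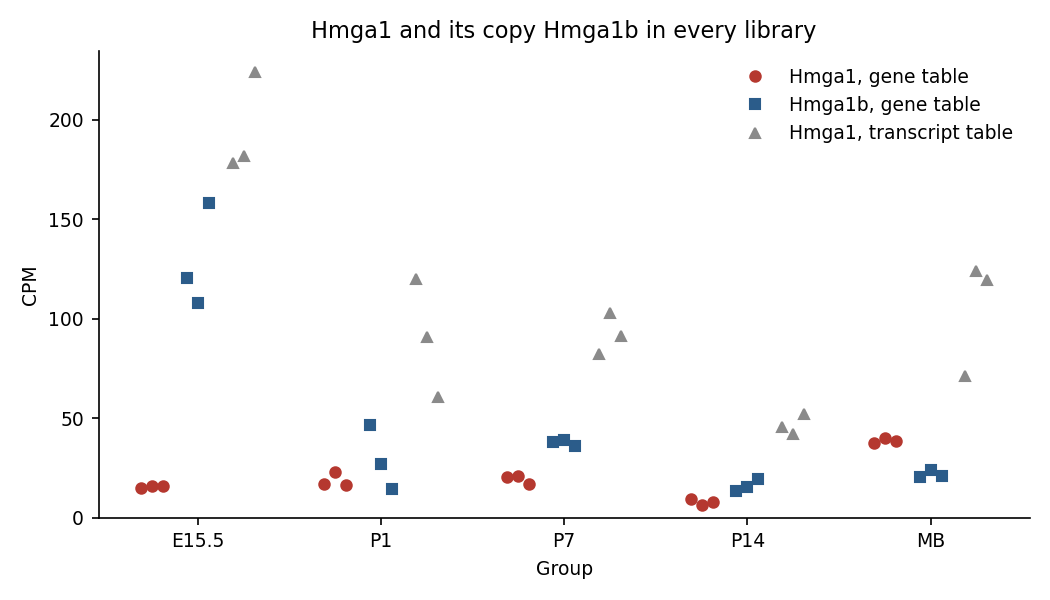
CPM of Hmga1 in the gene table, of its copy Hmga1b in the gene table and of Hmga1 in the transcript table, in every library of the 5 groups (linear axis). The gene table puts Hmga1 in the MB libraries at 37.8 to 39.9 CPM, above every other library, whereas the transcript table puts the E15.5 libraries highest, at 178 to 224 CPM.

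Over the ages, 5 members other than Igf2bp1 could be tested at each step, since Lin28a did not pass the filter. From E15.5 to P1, 3 of the 5 were called at an FDR under 0.05 (Igf2bp2, Lin28b and Hmga2), all lower at P1, where 46.3% of the 15259 genes tested were called in either direction, 20.9% lower and 25.4% higher. From P1 to P7, 3 of the 5 were called (Igf2bp2, Lin28b and Hmga2), all lower at P7, where 3.15% of genes were called, 1.74% lower and 1.4% higher. From P7 to P14, 5 of the 5 were called, all lower at P14, where 10.3% of genes were called, 4.51% lower and 5.81% higher. From P1 to P14, 5 of the 5 were called, all lower at P14, against 8.94% of genes called, 5.31% lower and 3.63% higher; both ages belong to the same counting set. The log2 difference over this interval was -2.82 for Igf2bp2, -3.17 for Igf2bp3, -3.67 for Lin28b, -4.82 for Hmga2 and -1.22 for Hmga1 (edgeR FDR 9.53e-05 to 0.00366). The median difference of the 5 members was -3.17 on the log2 scale, against 0.005 over all genes tested. These comparisons share the libraries of each age with the next. From E15.5 to P1 the genotype label changes with age, and their parts cannot be told apart.

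The steps to and from P7 are less firm. The share of all genes called is not given for the refits below, so their counts of members are not a result about the members in particular. With a term for the counting set, 0 of the 5 members passed from P1 to P7 in edgeR, with 3 at an unadjusted p under 0.05, and differences of -1.38 for Igf2bp2 (FDR 0.135), -1.58 for Lin28b (FDR 0.175) and -2.20 for Hmga2 (FDR 0.0613); DESeq2, run without that term, called 4. From P7 to P14, 3 of the 5 passed with the term. From P1 to P7, 1 member passed without P7 replicate 1 or without P1 replicate 2, 2 passed without P7 replicate 2 or P7 replicate 3 and 4 passed without P1 replicate 3. From P7 to P14, 3 passed without any 1 of the P14 libraries or without P7 replicate 2, where Igf2bp2 and Lin28b lost their calls.

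**Figure D4:**
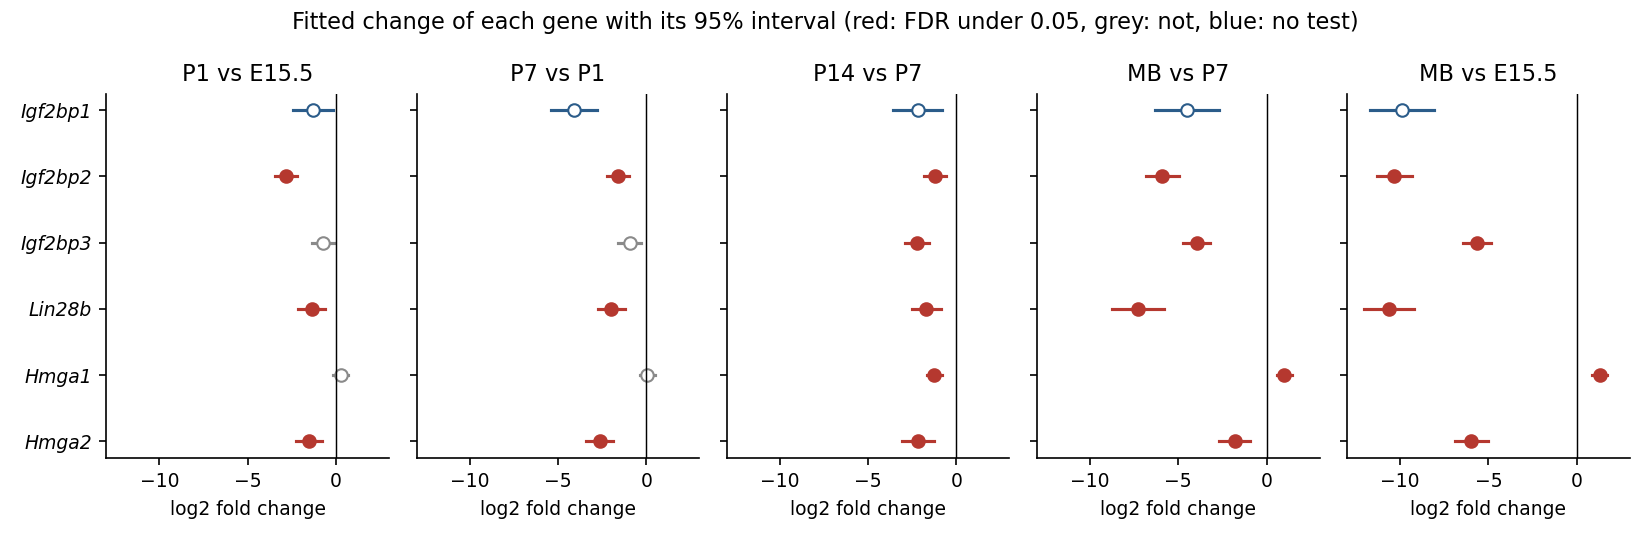
Fitted log2 fold change of 6 members in 5 comparisons, with 95% intervals; filled red points have an edgeR FDR under 0.05, open grey points do not, and open blue points (Igf2bp1) carry no test because its values chose the list. The points lie left of 0 except for Hmga1 in its gene table count, which lies left of 0 only from P7 to P14, and values for Igf2bp1, Igf2bp2 and Lin28b in MB rest on 1 to 8 counts.

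P1 replicate 3 was the lowest P1 library for all of the members that step down. Its level was 0.327 of the mean of the other P1 libraries for Igf2bp1, 0.429 for Igf2bp2, 0.442 for Igf2bp3, 0.615 for Lin28b and 0.387 for Hmga2. In the same library the granule neuron genes Rbfox3 and Neurod1 stood at 3.19 and 1.72 times the mean of the other P1 libraries, and the precursor gene Atoh1 at 0.413 times. The 8 precursor markers together did not follow Atoh1. They summed to 4112 CPM in P1 replicate 3, against 4564 and 4086 CPM in P1 replicates 1 and 2. Without this library the number of members called was 3 from E15.5 to P1 and 5 from P1 to P14, as with it. In bulk RNA, fewer cells of a type and less RNA per cell cannot be told apart. The nuclear neuron and interneuron markers were also higher in each E15.5 library than in any P1 library, and the part of cell makeup in these differences was not tested.

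In the tumour cells, Igf2bp1, Igf2bp2, Igf2bp3 and Lin28b were lower than at any age of the precursors. MB held 8 counts of Igf2bp2 over its 3 libraries (3, 2 and 3), against 529 at P7 and 8215 at E15.5. The scaled E15.5 level was 1282-fold the MB level for Igf2bp2 (95% counting interval 650.5 to 2971), 939-fold for Igf2bp1 (476 to 2175) and 1992-fold for Lin28b (357 to 78720). Igf2bp3 remained the best measured of the 4 in MB, with 18, 44 and 34 counts (0.714, 1.07 and 1.36 CPM), and the E15.5 level was 48.4-fold higher (39.5 to 59.9). The intervals cover counting error only.

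Against E15.5, 5 of the 5 members tested were called in MB, 4 lower and 1 higher, where 50.1% of genes were called, 24.2% lower and 26% higher. The edgeR FDR was 5.39e-10 for Igf2bp2, 2.16e-08 for Igf2bp3, 9.48e-09 for Lin28b and 5.01e-08 for Hmga2, and no library of MB overlapped with E15.5. For Igf2bp3 the difference was -5.64 on the log2 scale in the gene table and -4.16 in the transcript table (edgeR FDR 5.87e-08). Igf2bp1 is given here with no test, since its E15.5 level is part of the fall the list was chosen by. Without MB replicate 3, which holds all its MB counts, Igf2bp1 was at least 2006-fold lower in MB than at E15.5, taking 3 counts over the remaining MB libraries as the floor. Without MB replicate 1, Lin28b was at least 539-fold lower than at E15.5 on the same floor. The member that was higher in MB was Hmga1 in its gene table count, at 1.31 ± 0.20 (SE) on the log2 scale (edgeR FDR 6.56e-05), and it was lower in MB at -0.88 in the transcript table (edgeR FDR 0.00685) and at -1.25 with Hmga1b added (edgeR FDR 0.000243).

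Against P7, the age of the precursors that the study also set beside the tumour in its chromatin experiments, 5 of the 5 members tested were called in MB, 4 lower and 1 higher, where 34.5% of genes were called, 20.7% lower and 13.7% higher. Igf2bp2 was lower in MB at -5.90 ± 0.43 (SE) on the log2 scale (edgeR FDR 1.26e-07), Igf2bp3 at -3.96 ± 0.35 (edgeR FDR 8.16e-07) and Hmga2 at -1.80 ± 0.41 (edgeR FDR 0.00322). Lin28b passed as well (edgeR FDR 1.22e-06), with a scaled P7 level 223-fold the MB level (95% counting interval 39.7 to 8847), and it was at least 52.6-fold lower in MB without MB replicate 1. Igf2bp1, which was not tested here, had a P7 level 23.4-fold the MB level (11.6 to 54.9). Without MB replicate 3, which holds all its MB counts, the P7 level was at least 48.6-fold, a bound for the remaining MB libraries only. Igf2bp3 was also lower in MB in the transcript table, at -2.40 (edgeR FDR 1.28e-05). Hmga1 was higher in MB at 1.00 ± 0.20 in the gene table (edgeR FDR 0.00104), but the difference was 0.17 in the transcript table (edgeR FDR 0.622) and 0.08 with Hmga1b added (edgeR FDR 0.803). The endothelial markers were 319 to 372 CPM at P7 and the pericyte and fibroblast markers 381 to 642 CPM, against at most 35.1 and 29.8 CPM in MB, and the interneuron markers were 195 to 286 CPM at P7 against at most 8.33 in MB; their part in these differences was not tested.

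Against P14, 4 of the 5 members tested were called in MB, 3 lower and 1 higher, where 50% of genes were called, 27.2% lower and 22.9% higher. Igf2bp2 was lower at -4.69 ± 0.44 (SE) on the log2 scale (edgeR FDR 9.38e-07) and Lin28b passed as well (edgeR FDR 2.35e-05), being at least 16.2-fold lower without MB replicate 1. Igf2bp3 was lower at -1.73 ± 0.34 in the gene table (edgeR FDR 0.000603), but in the transcript table the difference was -0.42 (edgeR FDR 0.220). Hmga2 differed by 0.39 on the log2 scale with a 95% interval of -0.63 to 1.40 (edgeR FDR 0.523), on 20 counts at P14 and 26 in MB. Hmga1 was higher in MB by 2.26 ± 0.21 in the gene table (edgeR FDR 6.34e-07), by 1.18 in the transcript table (edgeR FDR 0.000901) and by 1.33 with Hmga1b added (edgeR FDR 0.000162). The 3 comparisons share the MB libraries.

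The genes most like each member were found by Pearson's r of log2 CPM over the 15 libraries, among 13452 genes with a symbol and a mean of at least 1 CPM. These r values describe the pattern over the 5 groups, since libraries of a group share their age. Closest to Igf2bp1 were Osbpl5, BC024139, Myh8, Pdgfc and Npy2r, with r of 0.960 to 0.965. Of these, Pdgfc encodes a platelet-derived growth factor and Myh8 a perinatal skeletal muscle myosin heavy chain. Among all genes, Hmga2 was ranked 7, Igf2bp3 11, Lin28b 13 and Igf2bp2 19 in likeness to Igf2bp1. Closest to Igf2bp2 were A930017K11Rik, Magel2 and Dpysl3 (r = 0.987 to 0.994), and Lin28b was ranked 6. Magel2 is an imprinted gene, and it stood at 33.7 CPM on average at E15.5 and 4.34 at P1. Closest to Lin28b were Pappa2, A930017K11Rik and Igf2bp2 itself (r = 0.982 to 0.983), closest to Igf2bp3 were Pdgfc, Tnfaip8l3 and the Notch ligand Dll1 (r = 0.975 to 0.976), and closest to Hmga2 were Scn9a, Myh8 and Nmrk1 (r = 0.970 to 0.974). Hmga1, by its gene table count, was unlike the other members (r = -0.43 to -0.02). Its closest genes were Mcm3 and Pola2, which act in DNA replication, and Hdac9 (r = 0.948 to 0.954). Mcm3 had mean levels of 139, 151, 152, 67.05 and 316 CPM in E15.5, P1, P7, P14 and MB, and thus shared the low P14 and the high MB level of Hmga1.

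The let-7 pathway around Lin28 was followed in a list of 15 genes for maturation of the microRNA and partners of Lin28, of which 12 were tested. From E15.5 to P1, 4 of the 12 fell and none passed upward, where 46.3% of all genes tested were called and 20.9% were lower, with a median difference of -0.19 on the log2 scale against 0.03 over all genes. Drosha, the nuclear nuclease that cuts primary microRNAs, fell from 265 ± 17.7 to 139.8 ± 4.14 CPM (edgeR FDR 0.000217), and Prkra, a partner of Dicer, from 124 ± 45.4 to 57.2 ± 8.88 CPM (edgeR FDR 0.000622). Drosha then rose to 213 ± 28.2 CPM at P7 (edgeR FDR 0.0437) and fell to 135 ± 14.6 CPM at P14 (edgeR FDR 0.0178), but neither step passed with the counting set term (edgeR FDR 0.213 and 0.173). In MB against P7, where 13.7% of all genes were higher, 1 of the 12 was, Dgcr8, the partner of Drosha, at 134 ± 28.4 against 91.4 ± 9.59 CPM (edgeR FDR 0.0127). Against P14, where 22.9% of all genes were higher, 4 were higher in MB, among them Tut4, which adds uridines to let-7 precursors held by Lin28, at 214 ± 90.0 against 107 ± 20.7 CPM (edgeR FDR 0.00532).

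A list of 20 other textbook let-7 targets, all tested, moved in both directions. From E15.5 to P1, 4 rose and 2 fell, where 25.4% of all genes were higher and 20.9% lower, with a median difference of 0.12 on the log2 scale against 0.03 over all genes. The cell cycle kinase gene Cdk6 rose from 7.30 ± 3.53 to 43.9 ± 14.9 CPM (edgeR FDR 0.000104). From P1 to P14, 6 fell and none passed upward, where 5.31% of all genes were lower and 3.63% higher, with a median of -0.43 against 0.005. They included Cdk6 at -1.80, the cyclin gene Ccnd1 at -1.70 and Mycn at -1.05 on the log2 scale (edgeR FDR 0.0121 to 0.0143). In MB against P7, 6 of the 20 were higher and 1 was lower, where 13.7% of all genes were higher and 20.7% lower. The median was 0.13 against 0.02. In either direction together, the number of calls is near the share over all genes, of which 34.5% were called. Cdk6 was higher in MB at 278 ± 82.4 against 27.7 ± 11.6 CPM (edgeR FDR 1.28e-05), Myc at 138 ± 86.2 against 22.3 ± 3.44 CPM (edgeR FDR 0.000114), Ccnd1 at 942 ± 429 against 237 ± 59.5 CPM (edgeR FDR 0.000429) and Mycn at 370.1 ± 72.8 against 160.2 ± 9.74 CPM (edgeR FDR 0.000678). In the same MB libraries Igf2bp1, Igf2bp2, Igf2bp3 and Lin28b were at their lowest by gene table counts. For Igf2bp3 the difference from P14 did not pass in the transcript table (-0.42, edgeR FDR 0.220). A link between the members and these targets was not tested.

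Among 14 genes whose RNAs Igf2bp proteins are known to bind, 13 were tested. Igf2, the growth factor gene the family is named for, stood at 22.1 ± 8.48 CPM at E15.5, where the Igf2bp genes were highest, and rose to 378 ± 130 CPM at P1 (log2 difference 4.11 ± 0.31 (SE), edgeR FDR 2.93e-07). Gap43, a growth cone protein gene, fell from 1487 ± 328 to 337 ± 45.4 CPM over the same step (edgeR FDR 6.58e-05). In all, 3 of the 13 rose and 3 fell from E15.5 to P1, a share near that over all genes, of which 46.3% were called. In MB against P7, 2 were higher (Myc and Ccnd1) and 5 were lower, where 13.7% and 20.7% of all genes were, among them Igf2 at 10.6 ± 2.31 against 228 ± 16.4 CPM (edgeR FDR 1.02e-07). The pericyte and fibroblast markers were low where Igf2 was low, at E15.5 and in MB, and high at the postnatal ages, and their part in the Igf2 difference was not tested.

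Igf2 also belongs to a list of 13 imprinted genes of fetal growth, of which 11 were tested. In MB against P7, 8 were lower and 2 were higher, where 20.7% of all genes were lower and 13.7% higher, with a median of -2.37 on the log2 scale against 0.02 over all genes. The lower ones included Ndn at 16.5 ± 3.41 against 211 ± 28.8 CPM (edgeR FDR 1.74e-07) and Dlk1, a secreted Notch-like regulator of growth, at 0.165 ± 0.220 against 2.69 ± 1.13 CPM (edgeR FDR 0.000450). Zim1 was higher in MB at 39.5 ± 43.2 against 3.24 ± 0.210 CPM (edgeR FDR 0.000380), with a spread between MB libraries as large as their mean. From E15.5 to P1, Cdkn1c, an inhibitor of cell division, and Ndn fell as well, with log2 differences of -2.36 and -1.75 (edgeR FDR 1.97e-05 and 8.06e-05), while Igf2 rose. Grb10, an adaptor that dampens insulin receptor signalling, fell from 203 ± 70.8 CPM at P1 to 55.7 ± 16.3 at P7 (edgeR FDR 0.0319), a call that did not pass with the counting set term (edgeR FDR 0.0654).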

How the data were processed

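Cells came off a Percoll gradient into Trizol, poly(A) RNA was selected, and TruSeq v2 libraries were sequenced on an Illumina HiSeq, per the labels' protocols. The submitters' processing notes name Trimmomatic, TopHat, StringTie and HTSeq and the build mm9, without versions. For each library the authors deposited raw counts of reads in 3 tables: per gene (21889 genes), per TSS model and per transcript (28246 transcripts). The strand setting is not given in the sources used here. Lines that name no gene were kept out of library sizes; 39.5% to 55.4% of a library's records were counted in genes and 22.9% to 44.6% had several alignments.

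The gene table was fitted with edgeR 4.0.16 in R 4.3.3: filterByExpr (minimum count 10, minimum total 15; 15259 genes), TMM, 1 mean per group over 15 libraries (10 residual degrees of freedom), the quasi-likelihood F-test and Benjamini-Hochberg adjustment over all genes tested, called at an FDR under 0.05. The fit was tested on simulated data. Ratios of few counts carry exact 95% counting intervals. Alternatives were DESeq2 1.42.0, no filter, 2 groups only, the TSS and transcript tables, a replicate block, a term for the counting set, leaving out each library and, chosen after seeing the data, Hmga1 and Hmga1b summed. The Tsnax split of the counting sets was also known from earlier results. The members and lists were chosen with earlier results of these data known. All 7 members are named, with up to 5 genes most like each and up to 4 called genes with the largest change per list and comparison. Positions of members are mm9; let-7 matches and coding sequences are from the GENCODE annotation of GRCm38 and mature miRNAs from RefSeq. Builds were not converted. The design also fixed a test of Igf2bp1 in MB against E15.5, which is given only as a description because its E15.5 level helped choose the list.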

Additional observations from a re-analysis of the deposited data

How the results depend on the processing

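Over 524 refits of a single member's fold change, 483 were unchanged, 24 lost the call, 6 gained it, 7 changed sign and 4 of the untested Igf2bp1 moved by more than their spread. Unchanged means the same direction and side of the threshold. For Igf2bp1 outside MB against E15.5, it means the same direction and a shift smaller than the spread between libraries. In MB against E15.5 the Igf2bp1 refits were labelled by the threshold, as the design had fixed. They are among the 524 but are no support, because the E15.5 level of Igf2bp1 helped choose the list. The share of all genes called in each refit is not given here. Counts of members called from E15.5 to P1 were 5 in the transcript table, against 3. From P1 to P7 they were 0 with the counting set term and 1 to 4 when a library was left out, against 3, and 2 with only the 2 groups fitted. From P7 to P14 they were 3 with the counting set term and 3 to 5 when a library was left out, against 5. Sign changes were all in Hmga1: -1.08 (transcript table) and -1.58 (with Hmga1b) from E15.5 to P1, -0.88 and -1.25 in MB against E15.5, and -0.04 to 0.22 when a library was left out from P1 to P7; for the tables the shared reads differ by construction, and for the rest the cause was not tested. The replicate block gave 3, 3, 5, 5, 5 and 4 members in 6 comparisons (the 3 steps between ages, P1 to P14, then MB with P7 and P14), the same as without it. In MB against E15.5 it called all 5 members tested, as without it, with Igf2bp1 left out. In the pathway lists the replicate block left Drosha (FDR 0.0663) and Grb10 (FDR 0.0553) without a call from P1 to P7, and gave 2 let-7 targets higher from E15.5 to P1 in place of 4. The replicate numbers were not taken as pairs, since 7 of 30 same-numbered pairs of libraries correlated above 0.1 (r = -0.312 to 0.332) and 5 of 15 libraries correlated best with their own number. No counts are given for the TSS table, which was matched to Igf2bp1, Lin28a and Hmga2 only, nor for MB against P14 with only these groups fitted, where Hmga2 had too few counts. Depth limits Lin28a everywhere and Igf2bp1, Igf2bp2 and Lin28b in MB.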
